A study of Mus musculus with 8 samples.

Results

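A set of 10 genes that report on RAS-MAPK signalling was followed in the pancreas of KPC and KPC-OG mice, out of 29621 genes to which the deposited transcripts could be assigned. The 10 genes were given as a list of symbols: the phosphatases Dusp4, Dusp5 and Dusp6, the pathway inhibitors Spry2, Spry4, Spred1 and Spred2, the transcription factors Etv4 and Etv5, and Phlda1. All 10 had enough reads to be tested, so none is missing from the counts below. RNA came from whole, perfused, flash-frozen pancreas of C57BL/6 mice at postnatal day 42, with 4 libraries of each genotype. KPC mice carried p48-Cre, a Cre recombinase active in the pancreatic epithelial lineage, together with a Cre-activated oncogenic allele and Trp53fl/fl, a p53 gene that Cre removes. KPC-OG mice carried the same alleles and R26tm1(LSL-OG), which adds a Cre-dependent insertion at R26, and the title names the model antigenic. Both groups carried the oncogenic allele and the floxed p53 gene, and no pancreas without them is in the series, so the data compare 2 tumour-prone genotypes. The OG transcript was not analysed here, so the genotype labels were not checked by an engineered gene. Whether the 4 libraries of a genotype stand for 4 separate animals is not given, and every p-value below refers to the variation among libraries, which may be partly technical.

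In the RAS-MAPK pathway, growth factor receptors activate RAS proteins, which pass the signal through the kinases RAF, MEK and ERK. Active ERK raises transcription of its own brakes, among them dual-specificity phosphatases that remove phosphate from ERK and Sprouty and Spred proteins that act upstream at RAS and RAF. It also relieves the repressor Capicua (Cic) from its targets, and the PEA3-group ETS factors Etv4 and Etv5 are among the best known of these. Because their messenger RNAs follow ERK activity in many epithelial tumours, such genes are used as a transcriptional read-out of the pathway, and activity of this pathway is central to acinar-to-ductal metaplasia and early pancreatic lesions.

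Promoters of 4 of the genes are shown because they hold letters that match the motifs of Capicua or of serum response factor, which both act downstream of ERK. They are taken from a set of RefSeq promoter windows (GRCm38.p6), each of 250 bases before to 50 bases after a start site. In that set 6 of the 10 genes had a window, 7 windows in all. None was matched there for Dusp4, Spry4, Etv4 or Phlda1. Capitals mark octamers of the Capicua pattern, on either strand, and in Dusp5 the CArG box, the element bound by serum response factor. Only bases before the start site and before the first annotated exon base of the gene are printed, 5′ to 3′ on the gene's strand. In the Etv5 label, "outside its exons" refers to the printed bases, and the start site itself was not checked.
Dusp6, chr10:99262981-99263230, plus strand: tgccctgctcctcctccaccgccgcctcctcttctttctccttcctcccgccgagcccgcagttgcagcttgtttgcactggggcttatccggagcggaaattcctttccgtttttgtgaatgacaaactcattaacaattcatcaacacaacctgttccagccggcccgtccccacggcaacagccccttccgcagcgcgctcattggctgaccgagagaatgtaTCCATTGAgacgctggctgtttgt
Dusp5, chr19:53528895-53529108, plus strand: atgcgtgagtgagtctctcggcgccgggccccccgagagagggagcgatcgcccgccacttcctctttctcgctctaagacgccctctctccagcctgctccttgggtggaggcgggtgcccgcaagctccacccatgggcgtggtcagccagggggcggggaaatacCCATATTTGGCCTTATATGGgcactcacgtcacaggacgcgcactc
Spry2, chr14:105896820-105897069, minus strand: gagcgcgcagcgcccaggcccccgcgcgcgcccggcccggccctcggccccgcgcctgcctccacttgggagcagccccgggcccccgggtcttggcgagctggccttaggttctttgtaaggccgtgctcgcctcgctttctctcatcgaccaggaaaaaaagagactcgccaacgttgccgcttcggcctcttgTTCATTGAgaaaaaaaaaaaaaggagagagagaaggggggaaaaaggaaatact
Etv5, chr16:22438369-22438618, minus strand, a start site inside the annotated gene and outside its exons: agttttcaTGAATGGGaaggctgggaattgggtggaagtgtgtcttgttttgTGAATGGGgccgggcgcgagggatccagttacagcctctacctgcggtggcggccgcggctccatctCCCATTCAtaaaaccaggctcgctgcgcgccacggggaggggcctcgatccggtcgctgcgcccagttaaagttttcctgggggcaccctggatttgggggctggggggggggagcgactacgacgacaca

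The Capicua pattern was searched as TGAATGAA, TGAATGAG, TGAATGGA, TGAATGGG, TCAATGAA, TCAATGAG, TCAATGGA and TCAATGGG on both strands over the whole 300-base window. It was present in 4 of the 7 windows, those of Dusp5, Dusp6, Spry2 and the inner start of Etv5, against 7.02% of all 32851 windows of the same length. The narrower pair TGAATGAA and TCAATGAA was present in the Spry2 window alone among the 7, against 2.03% of all windows. The printed Etv5 sequence held TGAATGGG 3 times, from 242 to 124 bases before the start site, and the Dusp6 window held TCAATGGA on the minus strand 24 bases before the start and again just after it. The Dusp5 window held TGAATGAG on the minus strand 39 to 32 bases before the start, where the annotated first exon begins, and so is not marked in the printed bases. A pair of adjacent CArG boxes lay 82 to 63 bases before the Dusp5 start, and 1.63% of all windows held such a box. None of the 7 windows held the ETS motif CCGGAAGT, the AP-1 motif TGANTCA or the CRE motif TGACGTCA, which were found in 3.89%, 7.81% and 1.79% of all windows. The wider octamers and the CArG box were chosen after the sequences had been seen, and a match to letters does not show that a factor binds.

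The KPC libraries were shallower, at 7373286 to 11292570 estimated reads each, than the KPC-OG libraries, at 13671606 to 18292115. Reads assigned to Lars2 took 20.8% to 29.95% of gene-level counts in KPC and 3.73% to 7.11% in KPC-OG, and the TMM factors were 0.483 to 0.653 in KPC. Levels between groups are given as CPM, counts brought to a common library size with scaling factors from the trimmed mean of M-values (TMM-scaled CPM), where a single count was worth 0.169 to 0.265 CPM in KPC and 0.0259 to 0.0655 in KPC-OG. Directions are relative to the typical gene. With library sizes alone the median of all tested genes moved up by 1.82 on the log2 scale, and all 10 genes were then called higher in KPC-OG, as were 91.7% of all tested genes. With TPM all 10 were higher too, against 90.7% of all genes. Read against the median gene, 3 of the 10 were called higher in either case, against 6.43% of all genes for library sizes and 6.9% for TPM. This reading applied the same shift to every gene in all KPC-OG libraries, without TMM. Scaling differences among libraries of a group therefore stayed in. TPM was taken as log2(TPM + 1), which shrinks the fold changes of genes near or under 1 TPM.

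Of the 10 genes 5 rose in KPC-OG and none fell at an adjusted p under 0.05 (edgeR quasi-likelihood test, Benjamini-Hochberg adjustment over 14267 genes). Over all tested genes 34.1% were called, 17.4% higher and 16.6% lower. The 5 were Dusp4, Dusp5, Dusp6, Etv4 and Phlda1, and the fitted log2 fold changes of all 10 were above 0, with a median of 0.90 against 0.09 for all tested genes. The 10 genes were chosen with earlier results of these data known, so these counts and medians are a description. In 5 genes every KPC-OG library lay above every KPC library, which was so for 17.6% of all tested genes. They were Dusp4, Dusp6, Etv4, Phlda1 and Spry4, and in Spry4 the nearest libraries of the groups both read 3.01 CPM. Calls of Dusp4, Dusp6 and Etv4 were made under all 21 alternative settings, whereas those of Dusp5 and Phlda1 were lost under 8 and 9 of them. These settings reuse the same libraries, and library sizes only and TPM called 91.7% and 90.7% of all tested genes higher.

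**Figure D1:**
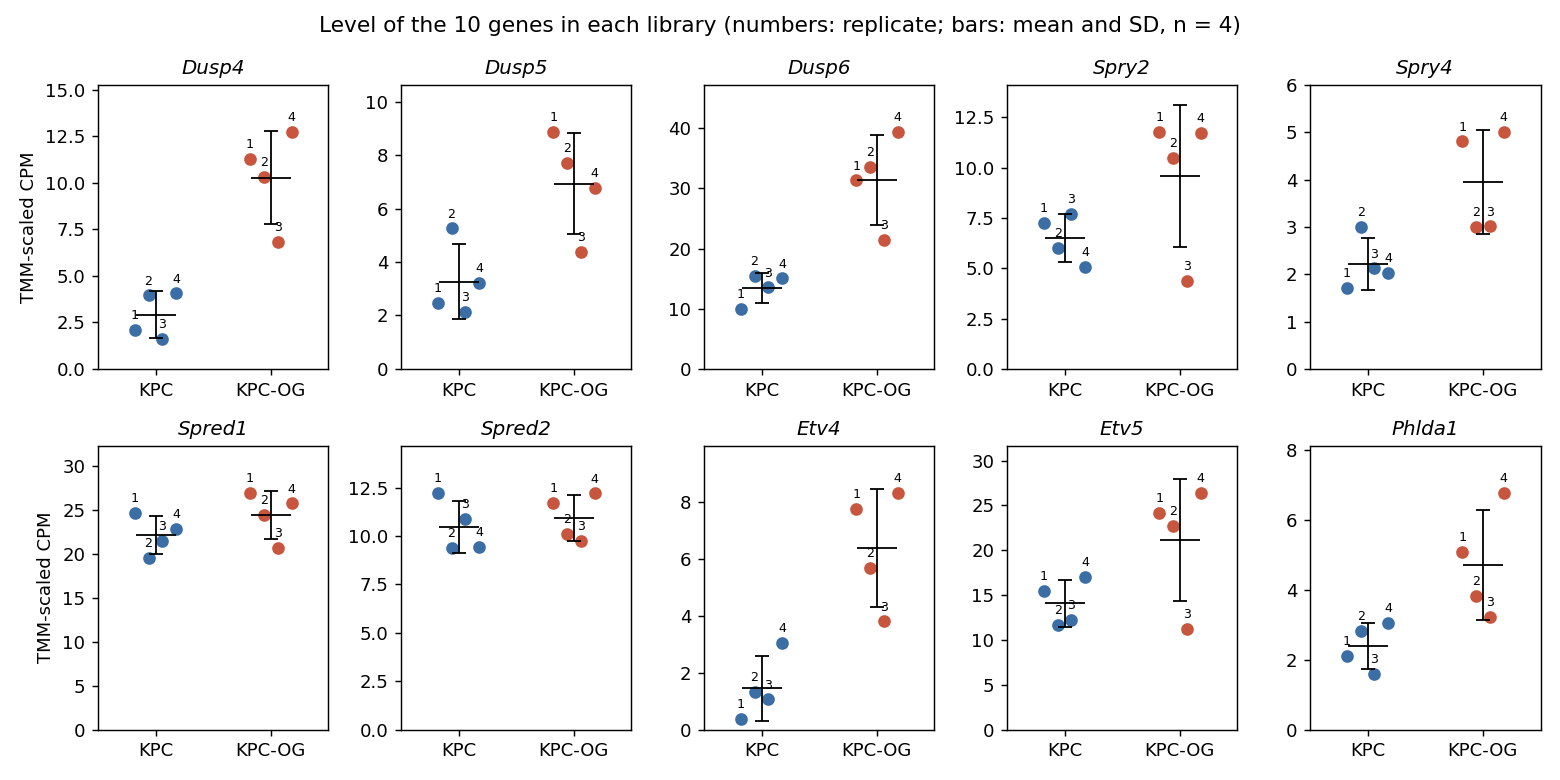
TMM-scaled CPM (vertical axes, each from 0) of the 10 genes in the 4 KPC (blue) and 4 KPC-OG (red) libraries, numbered by replicate, with the mean and SD of each group in black. Dusp4, Dusp6 and Etv4 are separated between the groups, Spred1 and Spred2 overlap, and KPC-OG 3 is the lowest KPC-OG library in 9 of the 10 genes.

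Among the phosphatases, Dusp6, the cytoplasmic phosphatase with the closest preference for ERK, was the most abundant (ENSMUSG00000019960, chromosome 10, 99263231 to 99267489, GRCm38). Its level was 9.93, 15.4, 13.5 and 15.0 CPM in KPC 1 to 4 and 31.3, 33.6, 21.5 and 39.3 CPM in KPC-OG 1 to 4. All 4 KPC-OG libraries lay above all KPC libraries, with KPC-OG 3 the nearest to them. Dusp6 rose 2.33-fold, a log2 fold change of 1.22 ± 0.21 (SE, 95% interval 0.77 to 1.68, edgeR adjusted p = 0.00198). It was supported by 274 estimated reads over the KPC group and 3974 over KPC-OG.

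Dusp4, a nuclear phosphatase induced by ERK (ENSMUSG00000031530, chromosome 8, 34807297 to 34819894), was at 2.10, 3.94, 1.59 and 4.05 CPM in KPC 1 to 4 and at 11.3, 10.3, 6.81 and 12.7 CPM in KPC-OG 1 to 4. The groups did not overlap, and the lowest KPC-OG value was again that of KPC-OG 3. Dusp4 rose 3.44-fold (log2 fold change 1.78 ± 0.30, SE, 95% interval 1.11 to 2.46, edgeR adjusted p = 0.00212), and on TPM read against the median gene its value was 1.11 (limma adjusted p = 0.0406). Its KPC level rests on 6 to 24 reads a library, against 104 to 427 in KPC-OG.

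Dusp5, a nuclear phosphatase that also anchors ERK (ENSMUSG00000034765, chromosome 19, 53529109 to 53542431), was at 2.48, 5.26, 2.12 and 3.21 CPM in KPC 1 to 4 and at 8.86, 7.70, 4.39 and 6.79 CPM in KPC-OG 1 to 4. The groups overlapped, since KPC 2 lay above KPC-OG 3. Dusp5 rose 2.10-fold (log2 fold change 1.07 ± 0.31, SE, 95% interval 0.38 to 1.76, edgeR adjusted p = 0.0235). Its KPC level rests on 8 to 28 reads a library, against 67 to 297 in KPC-OG. The call was lost without any 1 of KPC 1, 3 and 4 and KPC-OG 1 and 2 (edgeR adjusted p from 0.0589 to 0.071), and with limma-voom (adjusted p = 0.0767). When each gene was read against the median gene, the call was also lost. The log2 fold change was then 1.01 for library sizes without TMM (edgeR adjusted p = 0.142) and 0.60 for TPM (limma adjusted p = 0.25).

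The 4 upstream inhibitors did not pass the test. Spry2, a Sprouty protein that restrains receptor signalling to RAS (ENSMUSG00000022114, chromosome 14, 105891947 to 105896819), was at 7.26, 6.01, 7.70 and 5.07 CPM in KPC 1 to 4 and at 11.75, 10.5, 4.39 and 11.7 CPM in KPC-OG 1 to 4. The values of 3 KPC-OG libraries lay above the KPC range and KPC-OG 3 lay below it, and the gap of KPC-OG 3 from the others is large enough to be listed below for a closer look. The log2 fold change of Spry2 was 0.58 ± 0.30 (SE, 95% interval -0.09 to 1.26, edgeR adjusted p = 0.165). Without KPC-OG 3 it was 0.82 (edgeR adjusted p = 0.00522).

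Spry4, a related inhibitor (ENSMUSG00000024427, chromosome 18, 38586247 to 38601415), was at 1.72, 3.01, 2.12 and 2.03 CPM in KPC 1 to 4 and at 4.81, 3.01, 3.01 and 5.001 CPM in KPC-OG 1 to 4. KPC 2, KPC-OG 2 and KPC-OG 3 could not be told apart, while KPC-OG 1 and KPC-OG 4 were higher. Its log2 fold change was 0.84 ± 0.30 (SE, 95% interval 0.18 to 1.49), just short of the threshold (edgeR adjusted p = 0.0505). The call was made without KPC 2 (edgeR adjusted p = 0.0369) and without KPC-OG 3 (0.0348). On TPM relative to the median gene the value was -0.17 (limma adjusted p = 0.674), where a pseudocount of 1 was added and Spry4 was at most 0.63 TPM in KPC.

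Spred1, a scaffold that brings the RAS inactivator neurofibromin to the membrane (ENSMUSG00000027351, chromosome 2, 117121374 to 117182279), was at 24.6, 19.5, 21.5 and 22.8 CPM in KPC 1 to 4 and at 26.9, 24.4, 20.6 and 25.7 CPM in KPC-OG 1 to 4. The groups overlapped, and the log2 fold change was 0.14 ± 0.13 (SE, 95% interval -0.14 to 0.43, edgeR adjusted p = 0.416). Spred2, its paralogue (ENSMUSG00000045671, chromosome 11, 19924375 to 20024026), ranged from 9.39 to 12.2 CPM in KPC and from 9.76 to 12.2 CPM in KPC-OG, with a log2 fold change of 0.07 ± 0.15 (SE, 95% interval -0.26 to 0.40, edgeR adjusted p = 0.762). The intervals of Spred1 and Spred2 leave room for fold changes up to 1.35 and 1.32. Both intervals end below the lower ends of those of Dusp4, Dusp6 and Etv4, although the difference between genes was not itself tested.

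Etv4, a PEA3-group ETS transcription factor (ENSMUSG00000017724, chromosome 11, 101769742 to 101785371), had the largest fold change of the 10. It was at 0.38, 1.31, 1.06 and 3.04 CPM in KPC 1 to 4 and at 7.76, 5.68, 3.80 and 8.31 CPM in KPC-OG 1 to 4. The groups did not overlap, with KPC 4 the highest KPC library and KPC-OG 3 the lowest KPC-OG library. Etv4 rose 4.27-fold (log2 fold change 2.10 ± 0.47, SE, 95% interval 1.06 to 3.13, edgeR adjusted p = 0.00745). The KPC level rests on 2, 7, 4 and 18 reads, so the size of the change is less certain than its direction, without KPC 4 the log2 fold change was 2.80, and on TPM read against the median gene it was 1.31 (limma adjusted p = 0.0457).

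Etv5, the other PEA3-group factor measured (ENSMUSG00000013089, chromosome 16, 22381309 to 22439719), was at 15.5, 11.6, 12.2 and 17.1 CPM in KPC 1 to 4 and at 24.1, 22.7, 11.2 and 26.4 CPM in KPC-OG 1 to 4. As for Spry2, 3 KPC-OG libraries lay above the KPC range and KPC-OG 3 lay below it. Its log2 fold change was 0.58 ± 0.26 (SE, 95% interval 0.01 to 1.15, edgeR adjusted p = 0.104), and 0.80 without KPC-OG 3 (edgeR adjusted p = 0.00264). Phlda1, a pleckstrin-homology protein induced by ERK (ENSMUSG00000020205, chromosome 10, 111506286 to 111508645), was at 2.10, 2.82, 1.59 and 3.04 CPM in KPC 1 to 4 and at 5.08, 3.81, 3.21 and 6.76 CPM in KPC-OG 1 to 4. The groups did not overlap, though KPC 4 and KPC-OG 3 were close. Phlda1 rose 1.95-fold (log2 fold change 0.96 ± 0.31, SE, 95% interval 0.27 to 1.65, edgeR adjusted p = 0.0359). That call was lost without any 1 of KPC 1, 2 and 3 and KPC-OG 1 and 4 (edgeR adjusted p from 0.0521 to 0.112), and with limma-voom (adjusted p = 0.176). It was also lost with counts thinned to the same effective library size, that is, library size times TMM factor (edgeR adjusted p = 0.0576). Read against the median gene, it was lost for library sizes without TMM (log2 fold change 0.93, edgeR adjusted p = 0.187) and for TPM (0.64, limma adjusted p = 0.225).

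**Figure D2:**
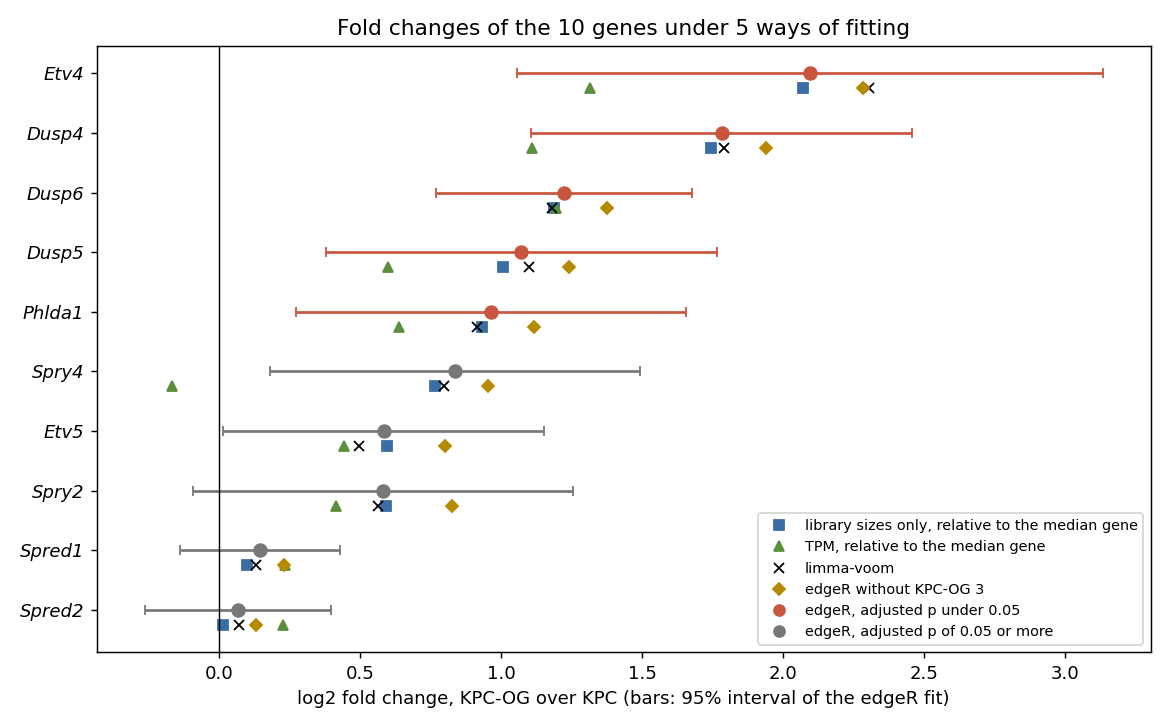
Log2 fold change of KPC-OG over KPC (horizontal axis) for each of the 10 genes, with circles and bars for the edgeR fit and its 95% interval (red where the adjusted p was under 0.05), and smaller marks for 4 other fits. Etv4, Dusp4 and Dusp6 stay well above 0 in all 5, while Spry4 falls to -0.17 on TPM relative to the median gene. The TPM fit used a pseudocount of 1, and Spry4 was at most 0.63 TPM in KPC.

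Levels of different genes were compared per transcript length, as TPM within a library. In KPC, Dusp6 was highest at 3.95 ± 1.14 TPM, followed by Etv5 at 3.25 ± 0.58, Spred1 at 2.98 ± 0.18, Spry2 at 2.52 ± 0.48 and Spred2 at 2.35 ± 0.20 (SD, n = 4). Phlda1, Dusp5 and Dusp4 stood lower, at 1.14 ± 0.37, 1.10 ± 0.63 and 0.89 ± 0.44 TPM, and Etv4 and Spry4 lowest at 0.65 ± 0.52 and 0.40 ± 0.16 TPM. Neighbours in that order differed by less than the larger of their SDs, except Spred2 and Phlda1. In KPC-OG, Dusp6 was again highest (29.3 ± 13.6 TPM) and Spry4 lowest (2.20 ± 1.02 TPM). The other 8 ran from 15.2 ± 7.41 TPM for Etv5 to 7.25 ± 3.01 TPM for Dusp5, and Etv4 moved up among them, to 10.5 ± 6.32 TPM. TPM is a share of each library and is not TMM-scaled, so these values order the genes within a group and give no fold change between the groups.

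KPC-OG 3 stood apart from the rest of its group. It was the lowest of its group in 9 of the 10 genes, Spry4 being the exception, and KPC-OG 4 was the highest in 7. Over all tested genes KPC-OG 3 was the lowest of its group in 35.3% and the highest in 34.2%, and KPC-OG 4 was the highest in 24.7%. Summed over the 10 genes, the level was 143.6, 131.8, 88.7 and 154.9 CPM in KPC-OG 1 to 4, and 74.3 to 84.8 CPM in KPC. KPC-OG 3 also had the lowest TMM factor of its group, 1.14 against 1.83 to 2.28. Without KPC-OG 3, 8 of the 10 genes were called higher, all but Spred1 and Spred2, while 19.7% of tested genes were. Without KPC 1, KPC 3 or KPC-OG 1, 3 were called (background 12.5%, 14.2% and 13.2%), and without KPC 2, KPC 4, KPC-OG 2 or KPC-OG 4, 5, 4, 4 and 4 were (background 16.4%, 14.6%, 12.4% and 12%).

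**Figure D3:**
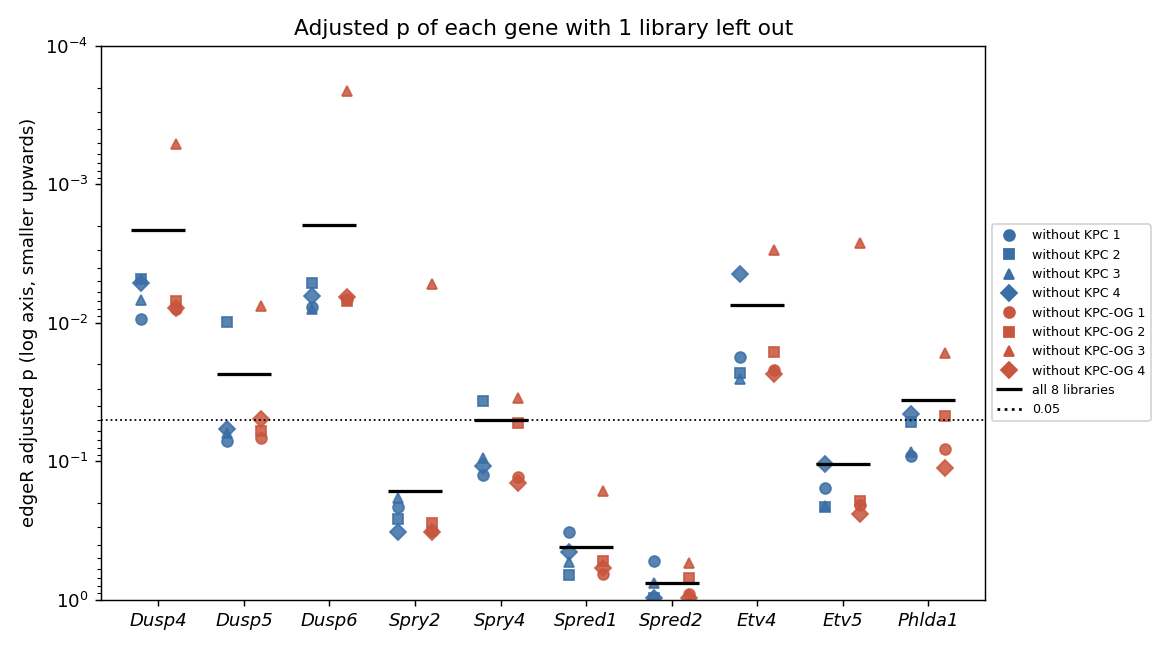
EdgeR adjusted p (vertical axis, log scale, smaller upwards) of each of the 10 genes with all 8 libraries (black bar) and with each library left out (blue for KPC, red for KPC-OG, shape for the replicate), and a dotted line at 0.05. Dusp4, Dusp6 and Etv4 stay beyond the line throughout, and the red triangles for KPC-OG 3 are the only marks of Spry2 and Etv5 beyond it.

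Whole pancreas mixes several cell types, so a larger share of cells that express a gene and more of its RNA per cell cannot be told apart. Cell type markers moved between the groups alongside the 10 genes, in lists that were also chosen with earlier results of these data known. The shares of all tested genes called higher and lower were 17.4% and 16.6%. Of 8 duct markers 6 rose and none fell, and their summed level was 269 to 355 CPM in KPC and 608 to 1322 CPM in KPC-OG. Of 8 fibroblast markers 7 rose and none fell (975 to 1296 CPM summed in KPC, 1637 to 4631 in KPC-OG), and all 8 macrophage markers rose (134 to 219.5 CPM, then 329 to 483). Of 8 acinar markers 7 fell, from a summed 79985 to 167033 CPM in KPC to between 5059 and 45150 CPM in KPC-OG, relative to the typical gene. In KPC-OG 3 the duct and fibroblast sums were the lowest of the group and the acinar sum was the highest, and the macrophage sum was not the lowest. No marker of these 4 lists was at 0 in all KPC libraries, and the part of these shifts in the changes of the 10 genes was not tested.

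Fewer markers were called in the remaining lists, to be read beside the 17.4% of all tested genes called higher and 16.6% called lower. Of 8 endothelial markers 2 rose and none fell (78.7 to 106 CPM summed in KPC, 75.5 to 114 in KPC-OG), and of 8 islet markers 1 rose and none fell (467 to 1091, then 400 to 880 CPM). Of 7 tested lymphocyte markers none was called (1.33 to 62.0, then 4.41 to 69.97 CPM). Of 6 tested nerve and Schwann cell markers 2 rose and 1 fell, with a summed 24.6 to 34.2 CPM in KPC and 12.1 to 14.9 CPM in KPC-OG. The lower sum does not describe the list, since the log2 fold changes of 5 of the 6 were above 0. Their median was 0.59 and the lowest value was -2.74.

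**Figure D4:**
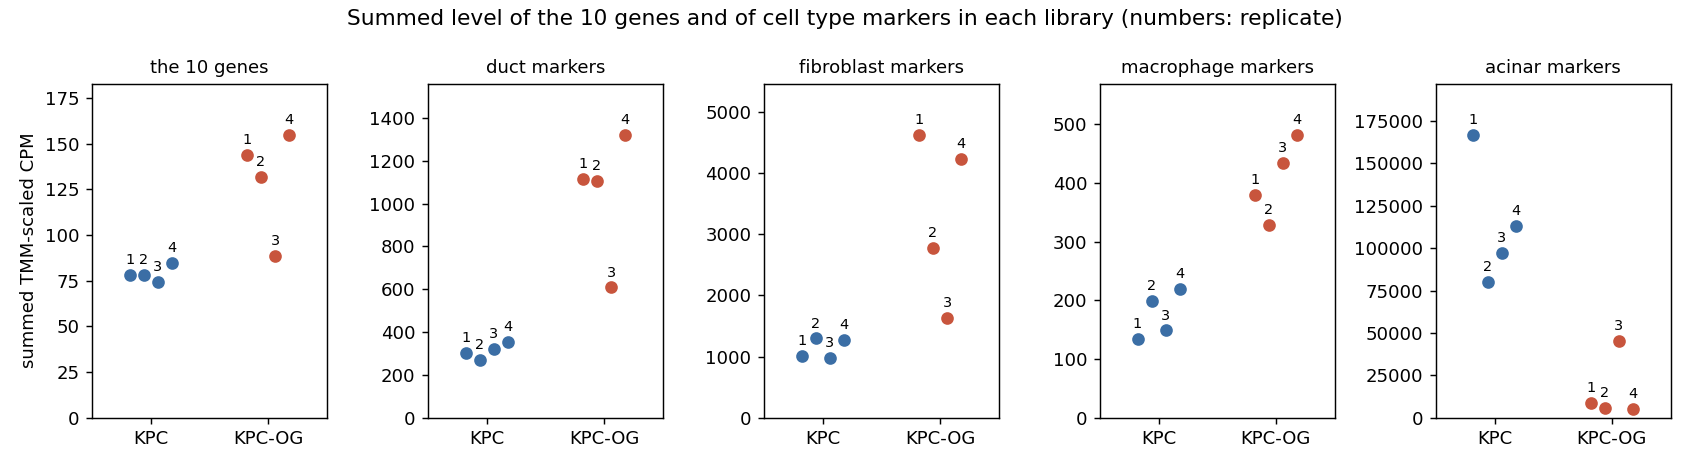
Summed TMM-scaled CPM (vertical axes, each from 0) of the 10 genes and of 8 markers each for duct cells, fibroblasts, macrophages and acinar cells, in the 4 KPC (blue) and 4 KPC-OG (red) libraries numbered by replicate. KPC-OG 3 is the lowest KPC-OG library for the 10 genes, duct and fibroblast markers and the highest for acinar markers, relative to the typical gene.

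Other genes of the pathway were read from the same fit, by role. Most of the other ERK-responsive genes rose: of 15 tested 12 rose, 1 fell and 2 were not called, with a median log2 fold change of 1.59. The list held 19 genes, and the others had too few reads to be tested. With no filter on low counts 13 of the 19 rose and 1 fell. For all tested genes the shares called higher and lower were 17.4% and 16.6%. Fos, an immediate early transcription factor, rose by 2.16 ± 0.33 (edgeR adjusted p = 0.00142) from between 1.72 and 3.38 CPM in KPC to between 7.73 and 20.2 CPM in KPC-OG. Epha2, a receptor tyrosine kinase induced by ERK, rose by 1.58 ± 0.22, and Phlda3, a relative of Phlda1 that is also a p53 target, by 1.68 ± 0.24 (edgeR adjusted p = 0.00103 for each). Myc, a growth-promoting transcription factor, fell by 1.24 on the log2 scale relative to the typical gene (SE 0.15, edgeR adjusted p = 6.24e-04), from between 13.6 and 19.0 CPM to between 6.54 and 7.99 CPM, although with library sizes only its value was 0.46. The list was written with earlier results of these data known, so its direction is a description.

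Of 8 other dual-specificity phosphatases 1 rose and 2 fell, with a median of -0.01, counts that are near the 17.4% and 16.6% of all tested genes called higher and lower. Dusp10, which acts on the stress kinases p38 and JNK, rose by 1.60 ± 0.52 (edgeR adjusted p = 0.0364), from 3, 5, 1 and 14 reads in KPC 1 to 4. Without KPC 4 its value was 2.41, and the call was lost without any single library other than KPC 4 and KPC-OG 3. Dusp7, an ERK phosphatase of the Dusp6 subgroup, fell by 0.57 relative to the typical gene (SE 0.12, edgeR adjusted p = 0.0059), and was 1.15 with library sizes only. Dusp8, another stress kinase phosphatase, fell by 1.12 relative to the typical gene (SE 0.37, edgeR adjusted p = 0.0384), and was 0.52 with library sizes only. The Dusp8 call was lost without any 1 of KPC 1 and 3 and KPC-OG 1, 2 and 4.

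Of 9 tested genes among the other Sprouty and Spred genes and RAS GTPase-activating proteins, 1 rose and 1 fell, with a median of 0.12. Such counts are near the 17.4% and 16.6% of all tested genes called higher and lower. Rasal1, which switches RAS off, rose by 1.81 ± 0.41 (edgeR adjusted p = 0.00738) from under 1.19 CPM in each KPC library, a call lost with limma-voom (adjusted p = 0.0672). Its KPC level rests on 4, 5, 1 and 7 reads in KPC 1 to 4, against 35 to 161 a library in KPC-OG. Lztr1, an adaptor for degradation of RAS proteins, fell by 0.93 relative to the typical gene (SE 0.14, edgeR adjusted p = 0.00133) and was 0.81 with library sizes only. Among 11 other ETS factors and Capicua genes 2 rose and 2 fell, again near those shares, with a median of 0.20. Etv1, the third PEA3-group factor, rose by 1.06 ± 0.35 (edgeR adjusted p = 0.0384), a call lost with the transcript length offset (adjusted p = 0.0697) and without any single library other than KPC 1 and KPC-OG 3, and Elk3, a ternary complex factor, rose by 0.95 ± 0.22 (edgeR adjusted p = 0.00935). Ets2 and the Capicua partner Atxn1 fell by 0.80 and 0.40 relative to the typical gene (edgeR adjusted p = 0.00401 and 0.0203), and were 0.94 and 1.33 with library sizes only. The Atxn1 call was lost without KPC 4 or KPC-OG 2.

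Of 17 receptors and adaptors 3 rose and 5 fell (median -0.19), against 17.4% and 16.6% of all tested genes. Erbb2, a partner of the EGF receptor, rose by 1.12 ± 0.25 (edgeR adjusted p = 0.00791), whereas the RAS exchange factors Sos1 and Sos2 and the receptor Igf1r fell by 0.83, 0.75 and 0.80 relative to the typical gene (edgeR adjusted p = 0.00161, 0.0143 and 0.0109) and were 0.93, 0.99 and 0.90 with library sizes only. The Sos2 call was lost with the transcript length offset (edgeR adjusted p = 0.0793). Of 15 RAS, RAF, MEK and ERK genes 5 rose and 2 fell (median 0.07). Ksr1, a scaffold for RAF, MEK and ERK, rose by 1.09 ± 0.22 and the RAS-related gene Mras by 1.33 ± 0.31 (edgeR adjusted p = 0.00425 and 0.00883). The RAF kinase gene Braf fell by 0.60 relative to the typical gene (SE 0.14, edgeR adjusted p = 0.00927), and was 1.13 with library sizes only. With an offset for transcript length the Braf value was -0.04 (edgeR adjusted p = 0.93), and the call was lost.

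**Figure D5:**
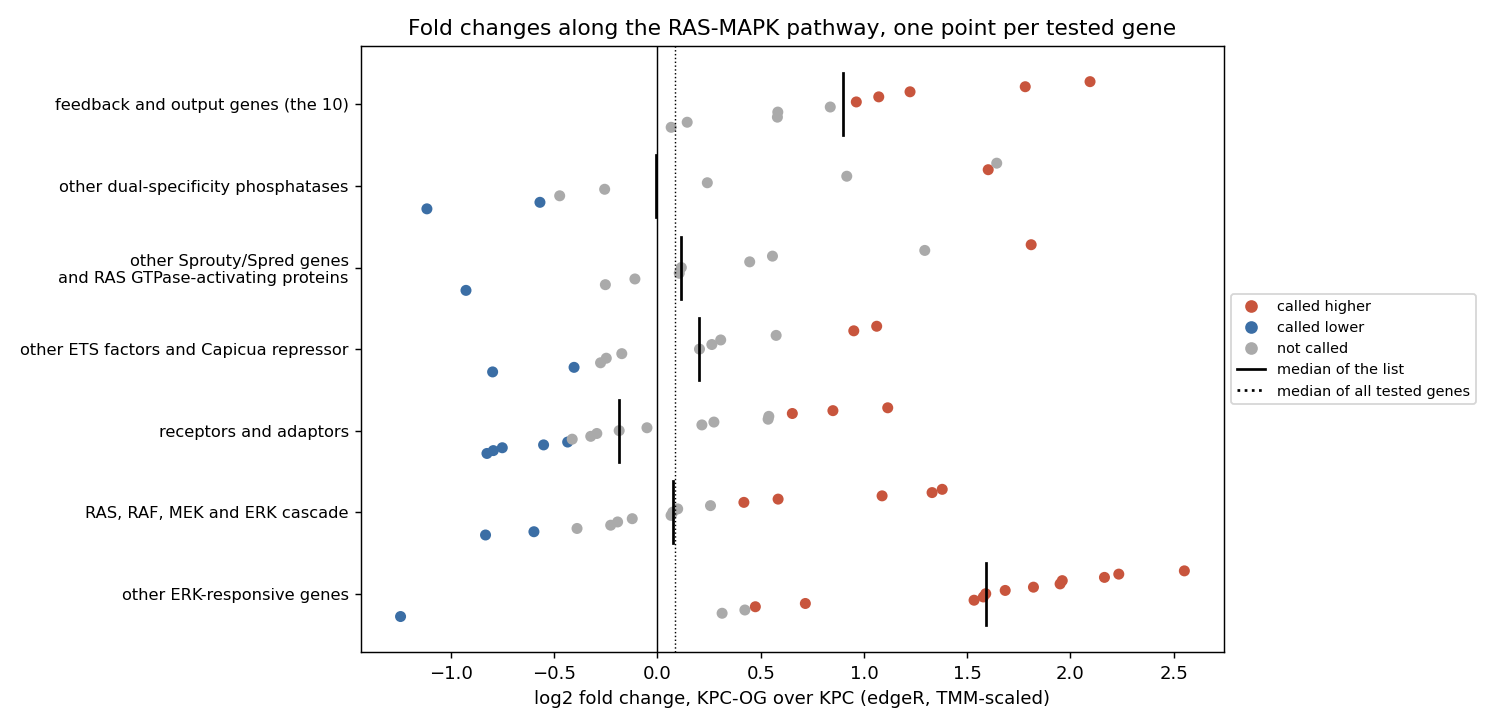
Log2 fold change of KPC-OG over KPC (horizontal axis, edgeR, relative to the typical gene) of each tested gene in 7 lists of the pathway, coloured by call, with a bar at each list's median and a dotted line at the median of all tested genes. The 10 feedback and output genes and the other ERK-responsive genes have medians of 0.90 and 1.59, and the other 5 lists have medians between -0.19 and 0.20; genes called lower here turned positive with library sizes only.

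The files also split each gene by transcript. Dusp4, Dusp5, Dusp6, Spry2 and Spry4 had 1 transcript each in the index. In Spred2 the short coding transcript Spred2-203 (745 bases) was listed at 0 in all 4 KPC libraries and had 10.7 to 17.5 estimated reads in each KPC-OG library, at 11.7% to 39.9% of the gene's TPM. Spred1-202 (1440 bases) had 2.25 reads in KPC 3, was listed at 0 in the other KPC libraries, and had 5.29 to 37.8 reads in KPC-OG. In Etv4, the coding transcript Etv4-212 held 38.5% to 85.7% of the gene's TPM in KPC-OG. In Etv5 the coding transcripts Etv5-201 and Etv5-203 held 50.0% to 65.2% and 24.7% to 43.3% of TPM in KPC-OG, while in KPC 3 all reads went to Etv5-203 and in KPC 1 and KPC 2 none did. With 46 to 101 Etv5 reads and 41 to 64 Spred2 reads a library in KPC, these shares are imprecise in KPC, and a difference in transcript use between the groups was not tested.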

How the data were processed

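Per the labels' protocols, total RNA was sequenced after ribosomal depletion. Per the file headers, the authors estimated transcript abundance with Sailfish 0.6.3 (k-mers of 20 bases, 1000 iterations, index named for Ensembl release 76), and deposited estimated counts, which need not be whole, and TPM. STAR 2.0.4b, bcl2fastq, limma and edgeR stand in the submitters' processing notes with no stated role. The deposited transcript length was used for a length offset.

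Of 86127 transcripts 83827 matched GENCODE M21 (GRCm38). Counts were summed per gene and rounded. The 2300 unmatched transcripts (1.45% to 4.23% of reads) stayed out. Strand is not stated, so overlapping and antisense genes cannot be told apart. No pair of libraries of a group was a duplicate (the lowest chi-square over its degrees of freedom was 14.8). Groups came from the titles.

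Genes were tested in R 4.3.3 with the robust quasi-likelihood fit of edgeR 4.0.16 after filterByExpr and TMM scaling, without covariates, with Benjamini-Hochberg adjustment at 0.05. Standard errors are the log2 fold change over the root of F. Alternatives were DESeq2 1.42.0, limma 3.58.1 voom, other scalings, no filter, log2(TPM + 1), a length offset, thinning, a replicate block and leaving out each library. The scripts were tested on simulated counts with planted changes around a shared profile. No shift of the typical gene between the groups was simulated, so the scaling was not checked. The 10 genes and the lists were chosen with earlier results of these data known. All 10 are named, with up to 4 passing genes with the smallest adjusted p of each pathway list, and every passing gene where 5 or fewer passed. A gene that this rule names is not reported here.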

Additional observations from a re-analysis of the deposited data

Results flagged for a closer look

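The level of Spry2 in KPC-OG 3 was 4.39 TMM-scaled CPM, while the other 3 KPC-OG libraries held 10.5 to 11.75 CPM. The gap between KPC-OG 3 and the nearest other library was 0.830 of the range of the group, just above Dixon's 95% critical value for 4 samples. It was the only such gap among the 20 groups of 4 libraries looked at (10 genes in 2 genotypes), and chance flags about 1 in 20. Without KPC-OG 3 the log2 fold change of Spry2 was 0.82 (edgeR adjusted p = 0.00522), against 0.58 (adjusted p = 0.165) with it.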

How the results depend on the processing

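Of the 10 genes, Dusp4, Dusp6 and Etv4 were called higher under all 21 alternatives, with an adjusted p of at most 0.0406, 0.0344 and 0.0457. Depth limits the precision of Dusp4, Dusp5, Etv4, Phlda1 and Spry4, which had at most 28 reads in any KPC library. The choice of scaling moved the counts most. With library sizes only, 13078 of all genes were higher and 99 lower, and with TPM 12946 and 125. Both raised the 10 genes to 10 called, the other phosphatases to 6, the Sprouty and GTPase-activating list to 9, the ETS list to 11, the receptors to 17 and the cascade to 15, with 0 lower in each of these and in the ERK-responsive list. Relative to the median gene, library sizes only gave 917 higher and 1400 lower among all genes, and higher and lower counts of 3 and 0 for the 10 genes, 0 and 1 for phosphatases, 0 and 1 for ETS, 1 and 2 for receptors and 0 and 1 for the cascade. TPM relative to the median gene gave 984 higher, 3 of the 10 genes, 7 ERK-responsive genes higher and 0 lower, 0 phosphatases higher, 0 higher and 0 lower in the Sprouty and ETS lists, 0 higher and 1 lower among receptors, and 1 higher and 0 lower in the cascade. Limma-voom called 3 of the 10 genes (12.2% of all genes), 0 phosphatases, 0 of the Sprouty list, 1 ETS and 3 cascade genes higher, and DESeq2 2 of the Sprouty list. Thinning gave 0 phosphatases (4 of 8 still tested) and 0 of the Sprouty list (8 of 9) higher, with Dusp10 and Rasal1 no longer tested, and 1 ETS gene lower, no filter 1 ETS gene lower, and the length offset 1 ETS gene higher, 3 receptors lower and 1 cascade gene lower (not Braf). Without both KPC-OG 2 and KPC-OG 3, chosen after seeing the data, 8 of the 10 genes were higher, 1 ETS gene lower, and 5 receptors higher and 2 lower. The causes were not tested.

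With library sizes only and then TPM, genes that fell turned positive: Atxn1 1.33 and 0.89, Braf 1.13 and 1.37 (0.059 on TPM relative to the median gene), Dusp7 1.15 and 1.02, Dusp8 0.52 and 0.40, Ets2 0.94 and 0.76, Igf1r 0.90 and 0.67, Lztr1 0.81 and 0.62, Myc 0.46 and 0.45, Sos1 0.93 and 0.54, Sos2 0.99 and 0.94. On TPM relative to the median gene, the calls of Atxn1, Dusp7, Dusp10, Elk3, Erbb2, Ets2, Etv1, Igf1r, Ksr1, Lztr1, Mras, Myc, Rasal1 and Sos2 were lost. With library sizes relative to the median gene, those of Atxn1, Braf, Dusp7, Dusp10, Elk3, Etv1, Ksr1, Mras and Sos2 were lost. Limma-voom lost those of Dusp10, Etv1 and Rasal1. Spry4 reversed to -0.17 on TPM relative to the median gene, where a pseudocount of 1 was added and Spry4 was at most 0.63 TPM in KPC. Dusp10 and Rasal1 were likewise at most 0.65 and 0.30 TPM in KPC, where the pseudocount shrinks fold changes.

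Leaving out 1 library at a time gave 1689 to 2880 genes higher and 1705 to 2548 lower, 3 to 8 of the 10 genes higher, and higher and lower ranges of 0 to 1 and 1 to 2 for phosphatases, 1 to 2 and 1 to 1 for the Sprouty list, 1 to 2 and 1 to 2 for ETS, 1 to 5 and 3 to 5 for receptors, 4 to 6 and 2 to 3 for the cascade, and 10 to 13 and 1 to 1 for ERK-responsive genes. Same-numbered libraries deviated with correlations of 0.27, 0.28, 0.04 and 0.04, so the numbers were not taken to pair them, and KPC 3 and KPC 4 did not correlate best with their own number. A replicate block called 6 of the 10 genes, adding Etv5 (0.55, edgeR adjusted p = 0.0472), with 2477 genes higher and 2418 lower.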
